A study of Mus musculus with 6 samples.

Results

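The genes described here encode the proteins of the mitochondrial ribosome whose symbols begin with MRPL, for the large subunit, or MRPS, for the small subunit. Members were every symbol in the expression table made of MRPL or MRPS, a number and at most 1 further letter, averaging 1 FPKM or more across the tumours. FPKM values scale the fragments of a gene by its transcript length and by the mapped total, so levels of different genes are given per length. Of 23284 gene symbols listed, 76 matched, and all 76 passed the minimum. They comprise 47 large subunit genes and 29 small subunit genes. The rows MRPL42P5, MRPL45P2 and MRPL23-AS1 begin in the same way but name pseudogenes or an antisense transcript, and were not counted as members.

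RNA was sequenced from 6 subcutaneous tumours raised in athymic nude mice, which lack a working thymus, by injecting STS26T cells, a single human line described as a malignant peripheral nerve sheath tumour. In 3 tumours (anti-ENG 1 to 3) the mice had received the antibodies TRC105 and M1043 against human and mouse endoglin (ENG), which helps surface receptors bind TGF-beta and related ligands. In the other 3 (IgG control 1 to 3) they had received an IgG control. Both groups were dosed into the peritoneum at 10 mg/kg, 2 times a week, for 3 weeks, and the ages of the mice are not given in the labels used here.

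The mitochondrial ribosome translates the few messenger RNAs of the mitochondrial genome, which encode core subunits of the respiratory chain and of the ATP synthase. All of its proteins are encoded in the nucleus, made in the cytosol and imported, while its ribosomal RNAs are transcribed inside the mitochondrion. The large subunit forms the peptide bond and sends the new chain through an exit tunnel to the inner membrane. The small subunit holds the messenger RNA and reads its codons. Many of these proteins have counterparts in bacterial ribosomes, and others are found only in mitochondria.

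As facts of the whole table, each tumour's FPKM summed to between 446100 and 475146 in the anti-ENG tumours and between 410786 and 443148 in the IgG tumours. The depth in fragments is unknown. Relative depth was estimated from values in genes of very low level, taken as the value of 1 fragment. Against IgG control 1 it was 1.46, 1.23 and 1.14 for anti-ENG 1, 2 and 3, and 1.18 and 1.09 for IgG control 2 and 3. These ratios stand for depth only if each tumour was scaled by its own mapped total, and the scaling used was not stated. The first principal component took 44.6% of the variance and set anti-ENG 1 against IgG control 1. The target ENG averaged 23.9 ± 7.39 FPKM in anti-ENG tumours and 29 ± 10.4 FPKM in IgG tumours (SD, n = 3 each), with overlapping values. Of 7 Schwann and neural crest markers, 5 averaged under 1 FPKM, SOX10 and S100B among them, so the labelled nerve sheath origin is not visible in these markers.

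Every mitochondrial ribosomal protein gene was above 0 in every tumour. Mean levels over the 6 tumours ran from 6.41 FPKM for MRPL19 to 288 FPKM for MRPS21, a 44.9-fold range. The median member stood at 34.8 FPKM, against 11.9 FPKM over the 12586 genes tested. When all genes tested were divided by level into 5 bins of equal size, 42 members lay in the highest bin (33.0 FPKM and above), 23 in the next, 10 in the middle bin, 1 in the bin below and 0 in the lowest.

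Among large subunit genes, MRPL21, counterpart of bacterial L21, had the highest level, followed by MRPL51 and MRPL20. MRPL21 had 253, 303 and 304 FPKM in anti-ENG 1, 2 and 3, and 209, 211 and 259 FPKM in IgG control 1, 2 and 3. The groups overlapped because IgG control 3 lay above anti-ENG 1. MRPL51, a protein found in mitochondrial but not bacterial ribosomes, had 198, 172 and 145 FPKM in the anti-ENG tumours, and 115, 130 and 134 FPKM in the IgG tumours. All 3 anti-ENG tumours lay above all 3 IgG tumours. MRPL20, whose bacterial counterpart acts early in assembly of the large subunit, had 173, 132 and 119 FPKM in the anti-ENG tumours, and 102, 122 and 112 FPKM in the IgG tumours. Anti-ENG 3 lay inside the IgG range. MRPL41, found only in mitochondria, averaged 120 ± 16.0 FPKM in anti-ENG tumours and 105 ± 7.88 FPKM in IgG tumours (SD, n = 3 each), and MRPL33 averaged 99.4 ± 26.9 and 73.5 ± 12.7 FPKM in the same order of groups, both with overlap. The lowest large subunit genes were MRPL19 at 6.41 FPKM and MRPL22, whose bacterial counterpart lines the exit tunnel, at 9.59 FPKM.

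Among small subunit genes, MRPS21 led with 323, 287 and 327 FPKM in anti-ENG 1, 2 and 3, against 251, 266 and 271 FPKM in IgG control 1, 2 and 3. Its groups did not overlap, and it was the most abundant of all 76 members. MRPS24, the counterpart of bacterial S3 at the messenger RNA entry, had 123, 102 and 130 FPKM in anti-ENG tumours, and 101, 87.6 and 87.5 FPKM in IgG tumours. The lowest anti-ENG value was just above the highest IgG value. MRPS26 averaged 102 ± 20.4 FPKM in anti-ENG tumours and 79.7 ± 6.32 FPKM in IgG tumours (SD, n = 3 each), and its groups overlapped. MRPS34 and MRPS33, both found only in mitochondria, averaged 80.5 and 57.3 FPKM over the 6 tumours, and the groups lay apart in each. The lowest small subunit genes were MRPS9 at 13.2 FPKM and MRPS14 at 13.7 FPKM, so the small subunit had no member as low as MRPL19 or MRPL22.

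**Figure D1:**
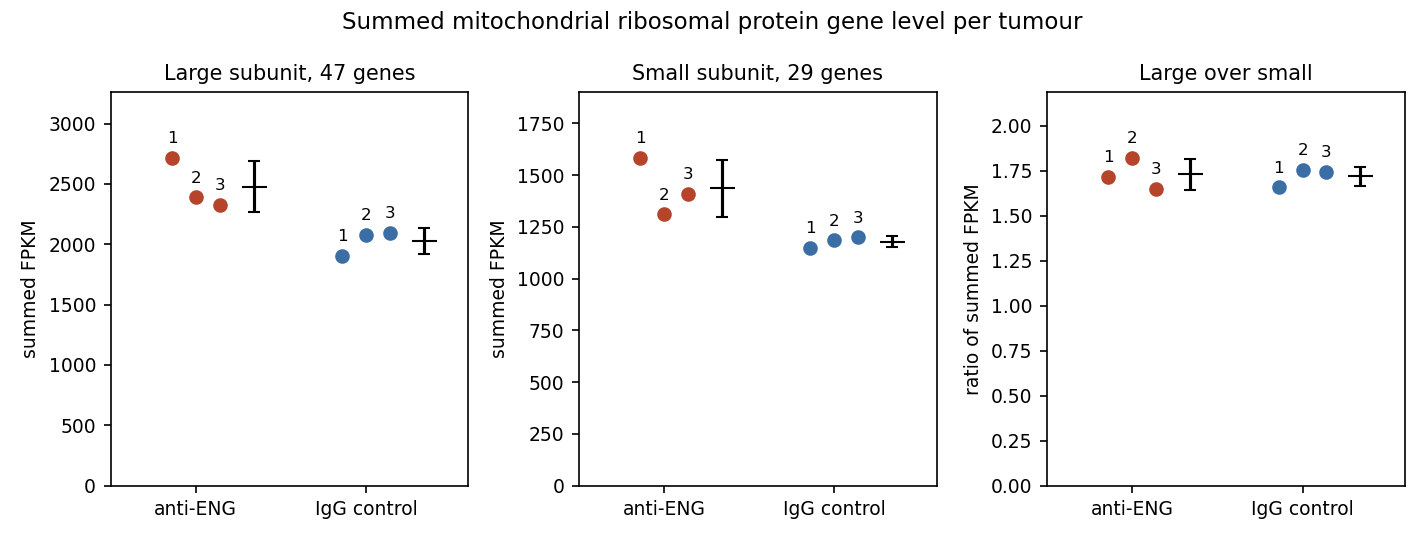
Summed FPKM of the 47 large subunit genes (left) and 29 small subunit genes (middle) and the ratio of the sums (right), for each anti-ENG and IgG control tumour; numbers are replicate numbers and black marks are the mean ± SD of 3 tumours. In the left and middle panels each anti-ENG tumour lies above each IgG tumour, while the ratios, 1.65 to 1.82 against 1.66 to 1.76, overlap.

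The comparison asks what blocking endoglin did to RNA of the tumours. Added over members, the large subunit genes reached 2718, 2389 and 2327 FPKM in anti-ENG 1, 2 and 3, against 1905, 2080 and 2094 FPKM in IgG control 1, 2 and 3. The small subunit genes reached 1585, 1311 and 1410 FPKM in the anti-ENG tumours, against 1149, 1185 and 1201 FPKM in the IgG tumours. For both subunits every anti-ENG tumour lay above every IgG tumour, and the ratio of group means was 1.22 for each. The 76 genes together took 0.906, 0.830 and 0.817% of all FPKM in the anti-ENG tumours, and 0.689, 0.790 and 0.802% in the IgG tumours. The groups were apart on this share too, but anti-ENG 3 stood close to IgG control 3, and the ratio of the group means was 1.12. In bulk tumours, a changed share of cells of a type and a changed amount of RNA per cell cannot be told apart.

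The balance of the subunits differed little between the groups. The large to small ratio of summed FPKM was 1.71, 1.82 and 1.65 in anti-ENG 1, 2 and 3, and 1.66, 1.76 and 1.74 in IgG control 1, 2 and 3. The means were 1.73 ± 0.0867 in anti-ENG tumours and 1.72 ± 0.0533 in IgG tumours (SD, n = 3 each), a difference smaller than the spread between tumours. Anti-ENG tumours held both the highest and the lowest ratio. MRPS30 and MRPS18A lie in the large subunit in structures of the human mitochondrial ribosome despite their symbols, and MRPS36 was later described as part of the 2-oxoglutarate dehydrogenase complex. The ratio was also taken with MRPS30 and MRPS18A counted in the large subunit and MRPS36 left out. It was then 1.854 ± 0.0918 in anti-ENG tumours and 1.855 ± 0.0531 in IgG tumours (SD, n = 3 each).

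No member passed the threshold of an adjusted p under 0.05. Limma on log2(FPKM + 1) over all 12586 genes called 0 genes in either direction, 0.0% of those tested, and the adjusted p of members ran from 0.529 to 0.999. Fold changes below are anti-ENG over IgG on this scale. The log2 fold change was above 0 in 72 of 76 members, against 51.2% of all genes tested. The groups lay apart with anti-ENG higher in 33 of 76 members (43.4%), against 10.6% of all genes, and lay apart with anti-ENG lower in 0 members, against 6.75% of all genes. The count of 33 depended on the scaling: it was 8 (3.46% of all genes) with each tumour rescaled to the same sum of FPKM, 19 (7.73%) after cyclic loess and 21 (8.66%) after quantile normalization. At an unadjusted p under 0.05, 23 members had higher estimates (30.3%), against 5.56% of all genes, and 0 had lower estimates, against 3.61%. With 3 tumours against 3, the exact two-sided permutation test cannot go below 0.1, which every gene with groups apart reaches.

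Both subunits had close medians. The median log2 fold change was 0.27 in the large subunit, with 46 of 47 genes above 0 and 19 with groups apart (40.4%). It was 0.26 in the small subunit, with 26 of 29 genes above 0 and 14 with groups apart (48.3%). Over all genes tested the median was 0.0065, and 10.6% had groups apart with anti-ENG higher. The middle of the distribution was also alike, the quartiles being 0.19 and 0.35 in the large subunit and 0.19 and 0.35 in the small subunit. The range was wider in the small subunit, which held both the highest value (MRPS18C, 0.60) and the lowest (MRPS14, -0.071) of all members. The highest large subunit value was 0.47 for MRPL43, and the lowest was -0.016 for MRPL53.

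**Figure D2:**
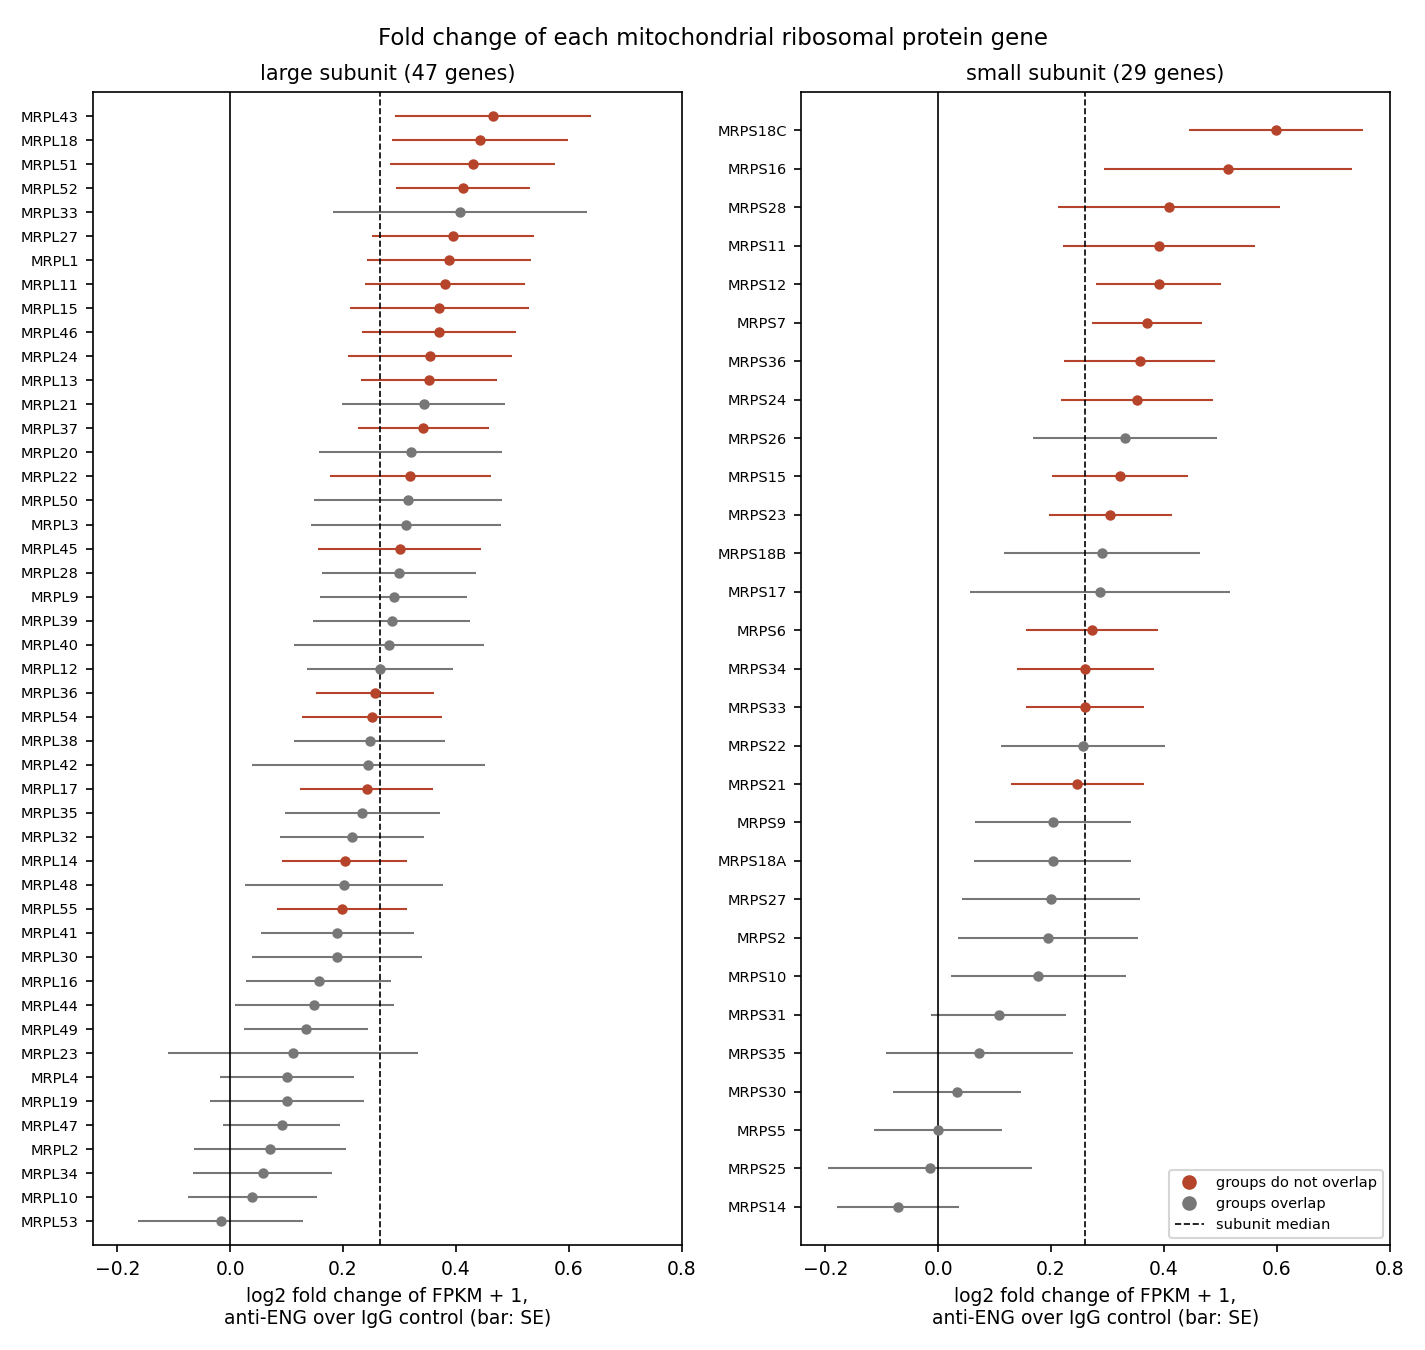
Log2 fold change of FPKM + 1 (anti-ENG over IgG control, bar ± SE, 3 tumours a group) for each large subunit gene (left) and small subunit gene (right); red marks genes whose groups do not overlap, grey the others, and the dashed line is the subunit median. Most genes lie near the dashed lines at 0.27 and 0.26, and MRPL53, MRPS5, MRPS25 and MRPS14 lie below 0.

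The gene of smallest p was MRPS18C, counterpart of bacterial S18. It had 38.8, 34.3 and 26.9 FPKM in anti-ENG 1, 2 and 3, and 19.4, 21.9 and 23.2 FPKM in IgG control 1, 2 and 3. All anti-ENG tumours were higher, anti-ENG 3 the least so. The estimate was 0.60 in log2 fold change (SE 0.154; adjusted p = 0.529 by limma), which is 1.51-fold. MRPS7, whose bacterial counterpart organises the head of the small subunit, had close values within groups, with 21.6, 23.6 and 22.4 FPKM in the anti-ENG tumours and 17.5, 17.1 and 16.99 FPKM in the IgG tumours. The gap between the groups was larger than the spread within either of them, with an estimate of 0.37 in log2 fold change (SE 0.0972; adjusted p = 0.529 by limma). MRPS12, counterpart of the decoding centre protein S12, had 51.9, 46.4 and 44.0 FPKM in the anti-ENG tumours and 34.1, 36.5 and 37.1 FPKM in the IgG tumours. Its groups were apart as well, at a log2 fold change of 0.39 (SE 0.11). MRPS23, found only in mitochondria, averaged 36.2 ± 2.26 FPKM in anti-ENG tumours and 29.1 ± 2.03 FPKM in IgG tumours (SD, n = 3 each), with a log2 fold change of 0.31.

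Of the large subunit, MRPL52 had the smallest p. It is found only in mitochondria and had 48.9, 39.6 and 45.9 FPKM in anti-ENG 1, 2 and 3, against 35.4, 33.2 and 31.4 FPKM in IgG control 1, 2 and 3. Every anti-ENG tumour lay above every IgG tumour, with an estimate of 0.41 in log2 fold change (SE 0.119; adjusted p = 0.529 by limma). MRPL51, whose values are given above, had 0.43 (SE 0.146). MRPL37, also found only in mitochondria, had 61.7, 51.9 and 51.9 FPKM in the anti-ENG tumours and 40.7, 45.4 and 43.5 FPKM in the IgG tumours, a log2 fold change of 0.34. Anti-ENG 1 was the highest of the 6, and the groups were apart. MRPL18 belongs to a protein family that binds 5S ribosomal RNA in bacteria, an RNA that the mammalian mitochondrial ribosome lacks. It had 49.1, 33.3 and 38.2 FPKM in the anti-ENG tumours and 31.5, 27.8 and 27.7 FPKM in the IgG tumours, a log2 fold change of 0.44. Its groups were apart, with anti-ENG 2 only slightly above IgG control 1. MRPL27, whose bacterial counterpart reaches towards the peptidyl transferase centre, averaged 58.4 ± 7.23 FPKM in anti-ENG tumours and 44.2 ± 5.74 FPKM in IgG tumours (SD, n = 3 each), and MRPL13 averaged 34.8 ± 3.57 and 27.0 ± 1.91 FPKM in the same order. Each of these 10 genes of smallest p had groups apart, and they were picked for small p in these same tumours, so that is no separate check.

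A few members went against the rest, with log2 fold changes below 0. MRPS14, counterpart of bacterial S14, had 13.2, 13.4 and 13.4 FPKM in anti-ENG 1, 2 and 3, and 12.9, 13.99 and 15.4 FPKM in IgG control 1, 2 and 3. The anti-ENG values were almost equal and lay within the IgG range, with an estimate of -0.071 in log2 fold change (SE 0.108; adjusted p = 0.815 by limma). MRPL53, found only in mitochondria, had 60.9, 46.2 and 47.2 FPKM in the anti-ENG tumours and 46.6, 57.4 and 51.3 FPKM in the IgG tumours. Its highest value and its lowest were both in anti-ENG tumours, and its log2 fold change was -0.016 (SE 0.146). MRPS25 had 20.5, 17.1 and 22.1 FPKM in the anti-ENG tumours and 15.4, 21.2 and 24.3 FPKM in the IgG tumours, a log2 fold change of -0.014 (SE 0.181). MRPS5, counterpart of bacterial S5, averaged 22.8 ± 2.41 FPKM in anti-ENG tumours and 22.7 ± 0.582 FPKM in IgG tumours (SD, n = 3 each), with a log2 fold change of -0.00023. All 4 estimates were smaller than their own SE, and those of MRPL53, MRPS25 and MRPS5 changed sign when 1 tumour was left out.

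The genes placed outside the small subunit by structure differed among themselves. MRPS30 had 28.2, 25.3 and 30.4 FPKM in anti-ENG 1, 2 and 3, and 28.4, 28.1 and 25.3 FPKM in IgG control 1, 2 and 3, fully overlapping, at a log2 fold change of 0.034 (SE 0.114). That of MRPS30 turned to -0.084 with each tumour rescaled to the same sum of FPKM and to -0.024 after cyclic loess normalization. MRPS18A had 25.3, 21.2 and 17.96 FPKM in the anti-ENG tumours and 17.9, 19.1 and 18.1 FPKM in the IgG tumours. Anti-ENG 1 and 2 stood above the IgG tumours and anti-ENG 3 among them, at a log2 fold change of 0.20 (SE 0.139). MRPS36 had 23.7, 17.9 and 21.3 FPKM in the anti-ENG tumours and 15.6, 15.0 and 17.7 FPKM in the IgG tumours, groups that were apart by a small gap, at a log2 fold change of 0.36 (SE 0.134). The S18 family thus held the strongest member, MRPS18C at 0.60, beside MRPS18B at 0.29 and MRPS18A at 0.20, both with overlapping groups.

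Members counted as having a bacterial counterpart and the other members were also set side by side, with no test of the difference. This grouping was made after values had been seen and follows the family numbers, with MRPS24 and MRPS28 counted as counterparts of bacterial S3 and S1 and MRPS36 left out. MRPL47 was placed among the others by its number alone, so the others cannot all be called found only in mitochondria. The 46 genes counted with a counterpart had a median log2 fold change of 0.29, with 44 above 0 and 21 with groups apart (45.7%). The 29 others had a median of 0.25, with 27 above 0 and 11 with groups apart (37.9%). The share apart with anti-ENG higher over all genes tested was 10.6%. Median levels were 38.8 FPKM in the 46 and 32.7 FPKM in the 29.

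**Figure D3:**
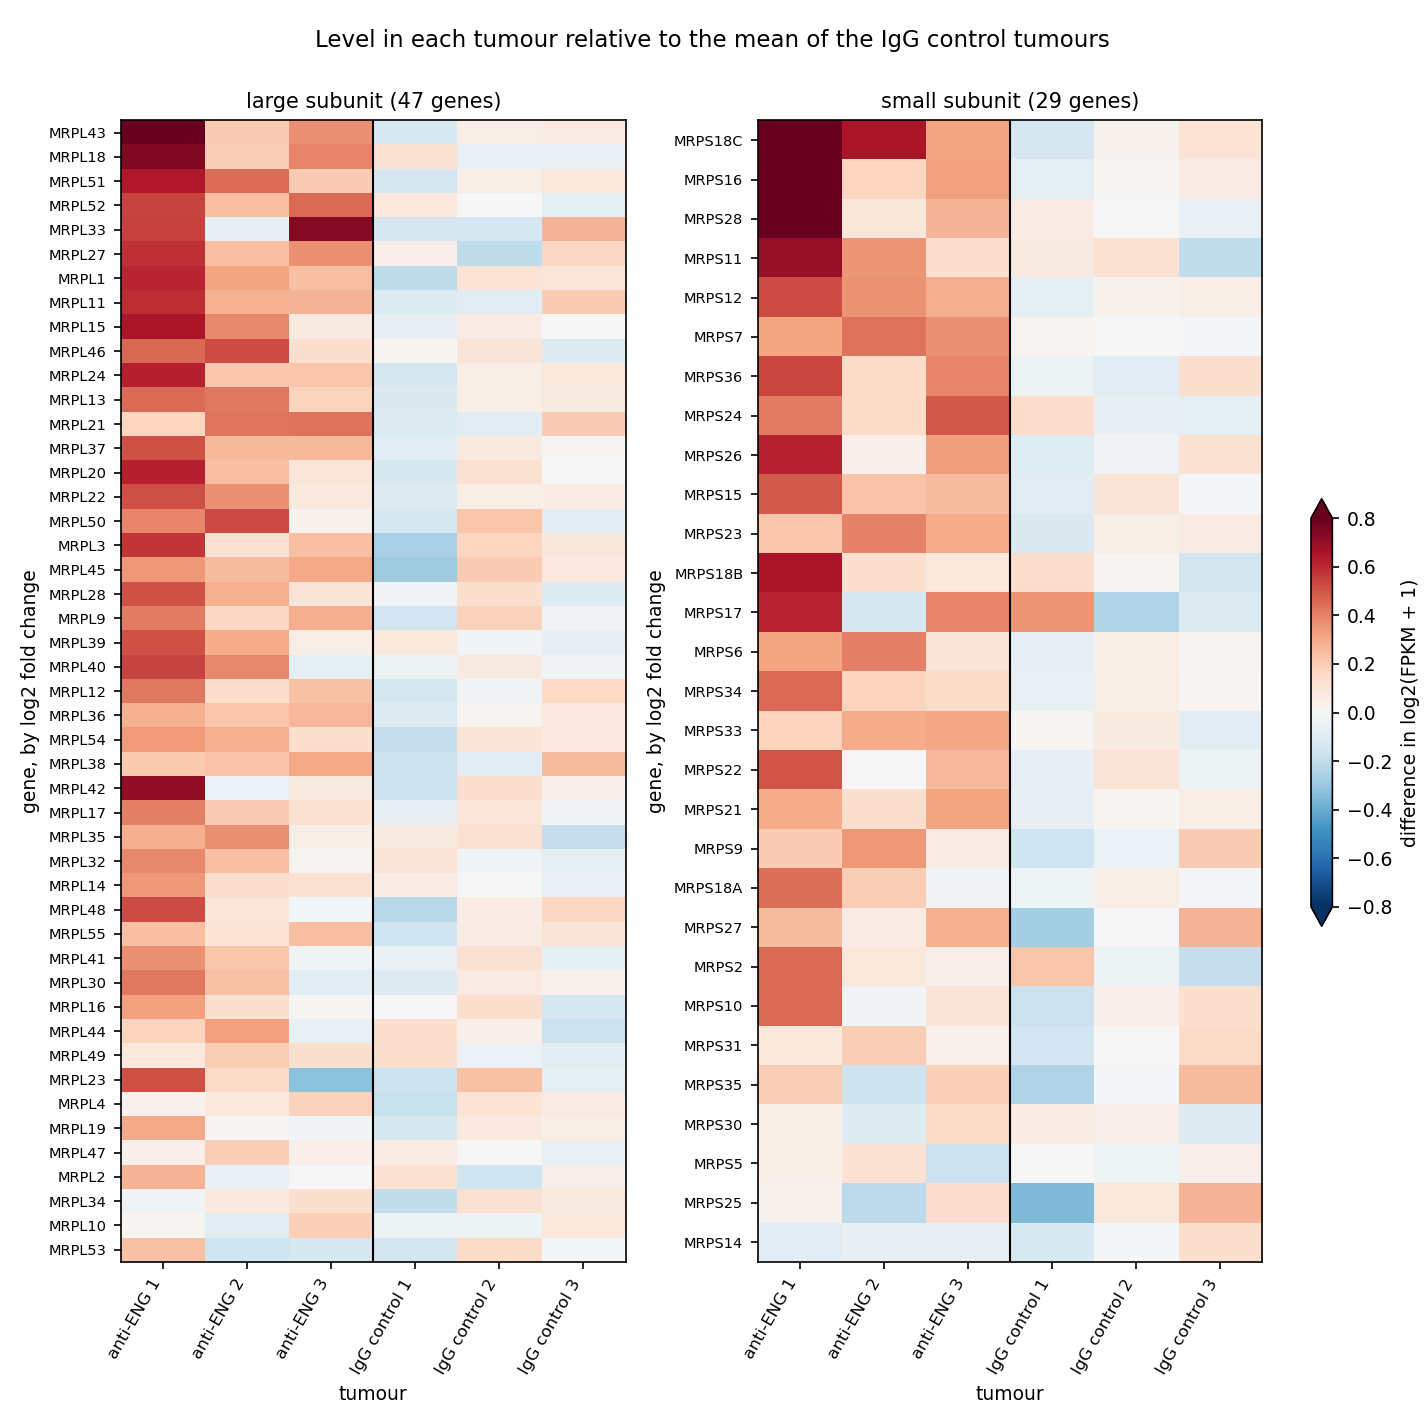
Difference in log2(FPKM + 1) of each tumour (columns) from the mean of the 3 IgG control tumours, for the 47 large subunit genes (left) and 29 small subunit genes (right), ordered by log2 fold change; red is higher and blue lower. The anti-ENG 1 column is the darkest red in both panels, and IgG control 1 lies below the IgG mean in 55 of 76 genes.

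The tumours did not contribute equally. Anti-ENG 1 held the highest value of the 6 in 49 members, anti-ENG 2 and anti-ENG 3 in 12 each, IgG control 3 in 3, and IgG control 1 and 2 in 0. IgG control 1 held the lowest value in 45 members and IgG control 3 in 21. Over all genes tested, anti-ENG 1 was highest in 30.5% and lowest in 25.4%. IgG control 1 was lowest in 21.5% of all genes and highest in 21.4%. The median difference from the IgG mean, in log2(FPKM + 1) over the large subunit genes, was 0.42, 0.22 and 0.13 in anti-ENG 1, 2 and 3, and -0.11, 0.059 and 0.039 in IgG control 1, 2 and 3. Over the small subunit genes it was 0.44, 0.15 and 0.25 in the anti-ENG tumours, and -0.066, 0.0099 and 0.038 in the IgG tumours. All 3 anti-ENG tumours were thus on the higher side for both subunits, with anti-ENG 2 above anti-ENG 3 in the large subunit and below it in the small subunit. These 2 outermost tumours, anti-ENG 1 and IgG control 1, also bound the first principal component and the relative depths given above, and the part of depth in the result was not tested.

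Single genes showed how far anti-ENG 1 could lead. In 18 members it was the highest tumour and at least 1.2 times the next one. The share of all genes with such a lead was not counted, so the 18 cannot be called particular to members. Anti-ENG 1 was the highest tumour, by any lead, in 30.5% of all genes tested. The largest lead was in MRPS16, counterpart of bacterial S16, with 79.3, 43.2 and 48.1 FPKM in anti-ENG 1, 2 and 3, and 36.2, 38.4 and 39.9 FPKM in IgG control 1, 2 and 3, a 1.65-fold lead. The groups were still apart, with anti-ENG 2 and 3 a little above the IgG range. MRPL42 had 27.4, 15.9 and 17.3 FPKM in the anti-ENG tumours and 14.5, 18.1 and 16.95 FPKM in the IgG tumours. Here anti-ENG 1 stood alone, and the other anti-ENG tumours lay inside the IgG range. MRPS28, counterpart of bacterial S1, had 46.5, 26.8 and 30.6 FPKM in the anti-ENG tumours and 26.3, 25.2 and 24.1 FPKM in the IgG tumours, with groups apart. These genes were chosen after their values were seen.

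Without anti-ENG 1, 69 of 76 members kept a log2 fold change above 0 and the median over members was 0.185. Without both anti-ENG 1 and IgG control 1, 66 of 76 were above 0 and the median was 0.17, against 0.019 over all genes. Anti-ENG 2 lay above all 3 IgG tumours in 50 members, against 29.4% of all genes, and anti-ENG 3 in 47, against 28.7%. Both did so in 34 members, against 13.3% of all genes. The coefficient of variation within a group had a median over members of 13.0% in anti-ENG tumours and 8.80% in IgG tumours. The labels give IgG control 2 and 3 a shared code number, and likewise anti-ENG 1 and 2, without saying whether such tumours came from 1 mouse. An L or R follows each number, and its meaning is not given. If they did come from 1 mouse, each group holds fewer mice than tumours. The SDs and p-values given here count tumours, not mice. With tumours of a shared number averaged, the median over members was 0.27, against 0.0056 over all genes. In that refit, with fewer values per group, 73 of 76 members were above 0, against 50.7% of all genes. The smallest adjusted p there was 0.676 by limma.

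**Figure D4:**
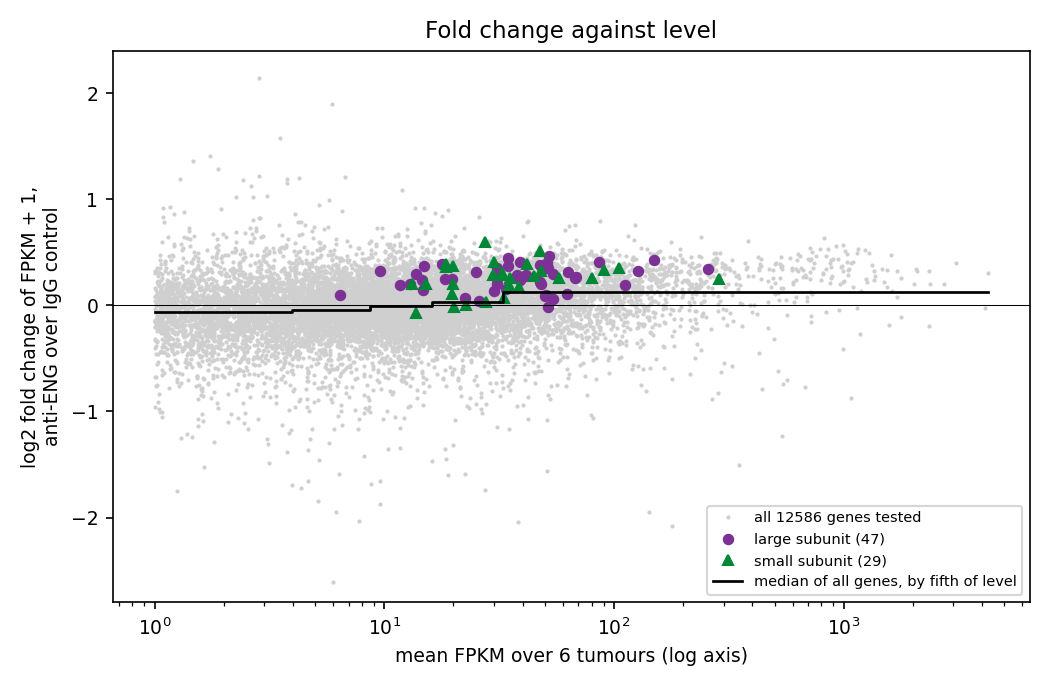
Log2 fold change of FPKM + 1 (anti-ENG over IgG control) against mean FPKM over 6 tumours on a log axis, for all 12586 genes tested (grey), large subunit genes (purple circles) and small subunit genes (green triangles); the black line is the median of all genes in each of 5 bins of level. The line climbs from -0.066 in the lowest bin to 0.12 in the highest, and 67 of 76 members lie above the median of their own bin.

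Fold changes of all genes went with level, and members are abundant genes. For all genes the median was -0.066 in the lowest bin by level and 0.12 in the highest, in log2 fold change. In the highest bin, 41 of 42 members were above 0, against 68.5% of all genes there, and 47.6% had groups apart with anti-ENG higher, against 24.1% of all genes there. In the next bin, 21 of 23 members were above 0, against 56.2%, and 43.5% had groups apart, against 11.2%. The median over members was 0.28 in the highest bin and 0.25 in the next, against 0.12 and 0.029 for all genes. The median over members was thus above that of all genes in each of these bins, on estimates of which none passed the test.

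Other protein families of abundant genes had values of similar size. Over 81 cytosolic ribosomal protein genes found by symbol the median log2 fold change was 0.36, with 81 above 0 and 37 with groups apart (45.7%). Over 72 nuclear genes of the respiratory chain and the ATP synthase found by symbol it was 0.32, with 70 above 0. Of these 72, 46 had groups apart with anti-ENG higher (63.9%) and 1 with anti-ENG lower (1.39%). The shares with anti-ENG higher were 10.6% over all genes and 24.1% in the highest bin by level, and with anti-ENG lower 6.75% over all genes. The median level of the cytosolic ribosomal protein genes was 742 FPKM, and that of the respiratory chain genes 83.3 FPKM, against 34.8 FPKM for the mitochondrial ribosomal protein genes. The median difference from the IgG mean over cytosolic ribosomal protein genes was 0.68, 0.11 and 0.32 in anti-ENG 1, 2 and 3, so anti-ENG 1 led there as well. These families share all 6 tumours, and the differences between them were not tested.

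The mitochondrial ribosome also holds proteins without an MRP symbol. Of 7 such genes, 6 had log2 fold changes above 0, with a median of 0.24. Groups were apart with anti-ENG higher in 2 of the 7 (28.6%), against 10.6% of all genes. CHCHD1, a small subunit protein, had 78.2, 50.8 and 57.4 FPKM in anti-ENG 1, 2 and 3, and 41.3, 49.8 and 45.1 FPKM in IgG control 1, 2 and 3. Its groups were apart by about 1 FPKM, with an estimate of 0.42 in log2 fold change (SE 0.173; adjusted p = 0.529 by limma). AURKAIP1, also of the small subunit, averaged 134 ± 3.47 FPKM in anti-ENG tumours and 114 ± 9.10 FPKM in IgG tumours (SD, n = 3 each), with groups apart. GADD45GIP1 of the large subunit had a log2 fold change of 0.30, the peptide release protein ICT1 0.24, DAP3 0.20 and MRP63 0.18. PTCD3, which binds RNA in the small subunit, was at -0.016.

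**Figure D5:**
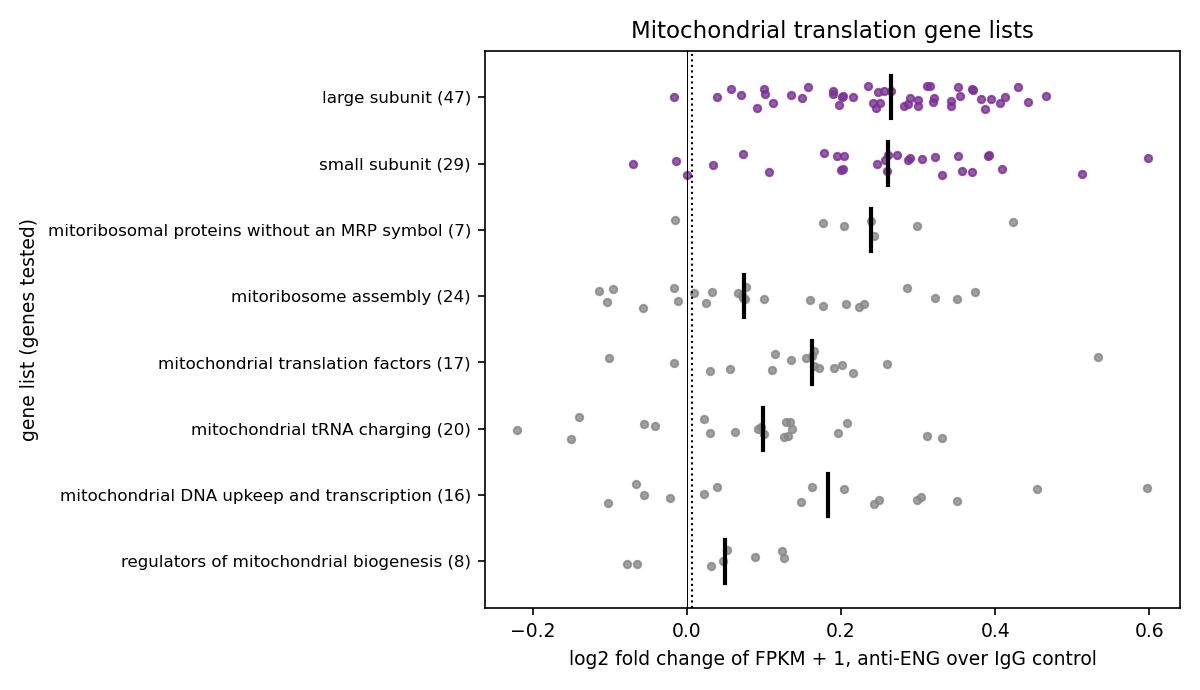
Log2 fold change of FPKM + 1 (anti-ENG over IgG control) of each gene tested in the large and small subunit (purple) and in 6 lists of related genes (grey); black bars are list medians and the dotted line is the median of all genes. The medians are 0.27 and 0.26 for the subunits, 0.24 for the other ribosomal proteins and between 0.049 and 0.18 for the other lists. Median levels of those last lists run from 8.63 to 18.2 FPKM, against 34.8 FPKM over all members.

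Genes that build the mitochondrial ribosome had a median closer to that of all genes, with no test of that difference. Their median level was 10.95 FPKM, against 34.8 FPKM for members, and fold changes of all genes went with level. Of 24 assembly genes, 18 were above 0, with a median log2 fold change of 0.074. Groups were apart with anti-ENG higher in 3 of the 24 (12.5%), against 10.6% of all genes. RNMTL1, a methyltransferase of the large ribosomal RNA, had 9.27, 10.1 and 9.96 FPKM in anti-ENG 1, 2 and 3, and 7.68, 8.04 and 6.64 FPKM in IgG control 1, 2 and 3. Its groups were apart, with an estimate of 0.35 in log2 fold change (SE 0.115; adjusted p = 0.529 by limma). MALSU1, which keeps the subunits from joining too early, averaged 43.2 ± 2.86 FPKM in anti-ENG tumours and 33.2 ± 3.93 FPKM in IgG tumours (SD, n = 3 each), with a log2 fold change of 0.37. MPV17L2 had 0.32, while the small subunit GTPase gene ERAL1 had 0.025 and the ribosomal RNA methyltransferase gene TFB1M 0.0087.

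Translation factors of mitochondria had a median log2 fold change of 0.16, with 15 of 17 above 0. Groups were apart with anti-ENG higher in 3 of the 17 (17.6%), against 10.6% of all genes. SLIRP, which binds mitochondrial messenger RNAs together with LRPPRC, had 201, 144 and 154 FPKM in anti-ENG 1, 2 and 3, and 114, 111 and 114 FPKM in IgG control 1, 2 and 3. The IgG values were almost equal and all anti-ENG values higher, with an estimate of 0.53 in log2 fold change (SE 0.147; adjusted p = 0.529 by limma). Its partner LRPPRC had 0.11. The elongation factor gene GFM1 had 0.22 and the release factor family gene C12orf65 0.26, both with groups apart, and the elongation factor gene TUFM had 0.056.

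Genes that charge mitochondrial transfer RNAs had a median of 0.098, with 15 of 20 above 0. Groups were apart with anti-ENG higher in 3 of the 20 (15.0%), against 10.6% of all genes. The alanine enzyme gene AARS2 was at a log2 fold change of -0.22 with overlapping groups, and PET112, of the complex that makes glutaminyl transfer RNA, had 0.31.

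Genes of mitochondrial DNA upkeep and transcription had a median of 0.18, with 12 of 16 above 0. Groups were apart with anti-ENG higher in 5 of the 16 (31.2%), against 10.6% of all genes. TFAM, which packs mitochondrial DNA and starts its transcription, had 46.2, 27.6 and 32.1 FPKM in anti-ENG 1, 2 and 3, and 22.6, 20.4 and 24.5 FPKM in IgG control 1, 2 and 3. All anti-ENG values were higher and anti-ENG 1 was the highest, with an estimate of 0.60 in log2 fold change (SE 0.191; adjusted p = 0.529 by limma). HSD17B10, a subunit of the mitochondrial RNase P, had 0.45 and the transcription factor gene TFB2M 0.30, both with groups apart. The RNA polymerase gene POLRMT was at -0.055.

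Regulators of mitochondrial biogenesis had a median of 0.049, with 6 of 8 genes tested above 0. Groups were apart with anti-ENG higher in 1 of the 8 (12.5%), NRF1, against 10.6% of all genes. NRF1, a transcription factor of nuclear genes for mitochondrial proteins, had 6.85, 6.44 and 6.34 FPKM in the anti-ENG tumours and 5.66, 5.86 and 6.23 FPKM in the IgG tumours, a narrow gap at a log2 fold change of 0.13 (SE 0.109). MYC had 0.12 and YY1 -0.065. The ninth gene listed, PPARGC1A, which encodes the coactivator PGC-1alpha, averaged 0.289 FPKM in anti-ENG tumours and 0.504 FPKM in IgG tumours. Its groups were apart with anti-ENG lower, at levels under the minimum of 1 FPKM, so it was not tested. In these 5 lists of assembly, translation, charging, DNA and regulator genes, no gene passed the adjusted threshold.

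Among the markers of other cells that were tested, only PDGFRB had groups apart, and none passed the test. The 6 fibroblast markers summed to 311, 673 and 808 FPKM in anti-ENG 1, 2 and 3, and to 1342, 1010 and 686 FPKM in IgG control 1, 2 and 3. All 6 had log2 fold changes below 0 and 0 of them had groups apart. Pericyte markers summed to 35.3 to 49.8 FPKM in anti-ENG tumours and 50.2 to 98.7 FPKM in IgG tumours, most of it PDGFRB, which averaged 26.6 FPKM in anti-ENG tumours and 54.1 FPKM in IgG tumours with groups apart. Of the 4 pericyte markers, 2 had log2 fold changes above 0 (RGS5 0.25 and CSPG4 0.30) and 2 below 0, with a median of -0.011. Macrophage markers summed to 73.3 to 100.1 FPKM in anti-ENG tumours and 62.0 to 119 FPKM in IgG tumours, nearly all of it CD68, while CD14, ITGAM and PTPRC averaged under 1 FPKM. The 5 endothelial markers summed to at most 4.69 FPKM in any tumour, with CDH5, VWF and KDR under 1 FPKM, and the 5 melanocyte markers summed to at most 4.61 FPKM. Host cells are mouse, so their RNA enters these values only where it aligned to the human genome, and the part of host cells in the ribosomal protein values was not tested.

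Reads of near-identical copies could be shared between rows, and how the counting divided them was not stated. The pseudogene rows MRPL45P2 and MRPL42P5 averaged 1.61 and 1.38 FPKM in anti-ENG tumours, and 1.44 and 1.299 FPKM in IgG tumours, low beside their parent genes. MRPL45 itself averaged 15.2 ± 0.550 FPKM in anti-ENG tumours and 12.3 ± 2.25 FPKM in IgG tumours (SD, n = 3 each). The antisense row MRPL23-AS1 stayed at or below 0.739 FPKM in every tumour, while MRPL23, whose bacterial counterpart sits at the tunnel exit, had 84.3, 65.4 and 46.7 FPKM in anti-ENG 1, 2 and 3, and 52.5, 69.5 and 55.9 FPKM in IgG control 1, 2 and 3. Its values crossed widely, with anti-ENG tumours both highest and lowest, at a log2 fold change of 0.11 (SE 0.221) that turned to -0.0088 with each tumour rescaled to the same sum of FPKM and to -0.089 without anti-ENG 1.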

How the data were processed

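Polyadenylated RNA of 6 tumours was sequenced, and the authors deposited 1 table of FPKM values with 1 column per tumour. Per the submitters' processing notes, reads were handled against human GRCh37 (hg19) with TopHat2 2.0.10, Bowtie 1.0.0, Cufflinks 2.2.1 and Cuffnorm. The scaling used, strand use and the treatment of mouse reads were not stated. Per the labels' protocols, more than 1 library kit and sequencer were in use, with no assignment to samples, so any such difference cannot be told apart from treatment. Groups and replicate numbers came from the sample titles.

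Log2(FPKM + 1) values of all genes averaging 1 FPKM or more were fitted in R 4.3.3 by limma 3.58.1, using a variance trend but no covariate. P-values were two-sided, adjusted over all genes tested (Benjamini-Hochberg) and read at 0.05. No count test was run, since the deposited FPKM are not counts. The log2(FPKM + 1) scale understates changes of low genes. The fitting step was run on simulated data with planted changes, to check the size of its estimates. Noise there was independent between genes, with no effect shared within a tumour, so the simulation gives no support to the p-values here. P-values measure only the spread between these tumours.

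Members and lists were chosen with earlier results of these data known. The genes named are the 5 highest and 2 lowest members of each subunit, the 10 of smallest p among those above 0, all below 0, 3 of each list by p, and members placed elsewhere by structure; MRPL43, MRPL42, MRPL45, MRPL23, MRPS16, MRPS18B, MRPS28 and some list genes were added after values were seen. One gene that this rule names is not reported here. Lists were described by counts and medians without a set test. Relative depth was read from genes of up to 0.05 FPKM. Human coordinates and sequences were not used here. Alternatives covered the pseudocount, the filter, scaling, the variance model, sample weights, blocks, averaging by code number, subunit by structure and leaving out tumours.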

Additional observations from a re-analysis of the deposited data

How the results depend on the processing

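No alternative called any gene at an adjusted p under 0.05 (0 members and 0 genes in each of 18 refits), and at an unadjusted p under 0.05 limma gave 1154 genes as processed. The median log2 fold change kept its sign in both subunits in all 18, but the small subunit's was 0.14 with each tumour rescaled to the same sum of FPKM, where the median of all genes shifted to -0.10 and 33.1% of all genes, against 51.2% as deposited, were above 0 and 62 of 76 members stayed above 0 with a median of 0.14. Members with groups apart numbered 8 under that rescaling (3.46% of all genes), 19 after cyclic loess (7.73%) and 21 after quantile normalization (8.66%), against 33 as deposited; the cause was not tested. Leaving out each tumour gave medians of 0.19 to 0.31 for the large and 0.18 to 0.30 for the small subunit, with 34 to 45 members apart, against 13.3 to 18.9% of all genes in refits that set 2 tumours against 3. The replicate numbers share no stated source and did not pair the tumours (correlations of deviations -0.329, 0.194 and 0.0371). With the replicate block 0 genes were called, the medians were 0.27 and 0.26, and the smallest adjusted p was 0.641. Estimates near 0 changed sign. MRPL19 was -0.0055, MRPL23 -0.0088 and MRPS30 -0.084 with equal sums, MRPS30 was -0.024 and MRPL23 -0.00059 after cyclic loess normalization, MRPL23 was -0.048 with array weights, MRPS25 was 0.11 with code numbers averaged, and MRPL19 was -0.067, MRPL23 -0.17 and MRPL42 -0.072 without anti-ENG 1 and IgG control 1. Leaving out each tumour in turn gave a range of -0.0018 (without anti-ENG 1) to 0.16 for MRPL19, -0.026 (without anti-ENG 3; -0.017 without IgG control 3) to 0.10 for MRPS30, -0.19 to 0.12 (without IgG control 3; 0.085 without anti-ENG 2 and 0.027 without IgG control 2) for MRPS25, -0.14 to 0.059 (without IgG control 2; 0.054 without anti-ENG 2 and 0.039 without anti-ENG 3) for MRPL53, -0.058 to 0.085 (without anti-ENG 3; 0.019 without IgG control 3) for MRPS5, and -0.089 (without anti-ENG 1) to 0.33 for MRPL23. The other named members, those added after values were seen included, kept their sign in all 18 refits. Of 30 named genes that are no members, 22 did so in every refit that held them, while PTCD3, ERAL1, TFB1M, LRPPRC, TUFM, POLRMT, CSPG4 and ENG changed sign in at least 1 refit. With depth unknown, no counting error can be given.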
